A study of Bos taurus with 8 samples.

Results

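The 37 genes described here act in the G2 phase and in mitosis, and were taken by symbol from a table of 14970 bovine genes. All 37 were present, and all reached the level set for the test, 0.5 RPKM in at least 4 of 8 libraries, as did 12582 genes in all. RPKM is the number of reads per kilobase of exon over a library size scaled by the authors, so levels of different genes can be compared. The libraries were made from total RNA of cattle (Bos taurus) trophectoderm, the outer cell layer of the embryo, grown out in culture. Every outgrowth came from an individual embryo produced in vitro, which after hatching was put on collagen IV on day 10 and fed trophectoderm growth medium. The day 41 group holds 4 libraries, called E to H, and the day 35 group holds 4, called A to D, so that the groups differ by 6 days of culture. The letters follow the columns of the table, whose headers give the day but not which outgrowth a library came from. Values are listed in the order E, F, G, H for day 41 and A, B, C, D for day 35, and means are given ± SD with n = 4 per day unless stated.

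Cells that divide raise the RNA of these genes late in the cycle. Cyclins A2, B1 and B2 activate the kinase CDK1 to start mitosis, the Aurora kinases and PLK1 build the spindle, and the kinetochore joins each chromosome to its microtubules. The spindle checkpoint then delays separation of the chromatids until all are attached, the anaphase-promoting complex with CDC20 removes the securin PTTG1 and the B cyclins, and motors and scaffolds of the midzone divide the cell. In ruminants the trophectoderm keeps proliferating as the conceptus elongates, while some of its cells become binucleate. The study developed a culture model of how bovine trophectoderm differentiates, and the question for these genes is whether their levels differ after the added days.

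Recovered reads came to 106402848 to 158034430 per library, and no member had fewer than 1550 reads in any library. The label trophectoderm was checked against 10 markers, whose summed level lay between 3049 and 3887 RPKM at day 41 and between 3853 and 4756 RPKM at day 35. Of these markers, GATA3 was at 86.9 to 107 RPKM at day 41 and 78.9 to 104 RPKM at day 35, while ELF5 stayed under 1 RPKM in every library. The keratins KRT8 and KRT18 gave most of the sum. Hypoblast and yolk sac markers summed to 473 RPKM in library B of day 35, against 154 in E, the next highest. Mesoderm and stroma markers summed to 247 RPKM in B, against 35.0 in F, the next highest. Library A of day 35 stood apart in these genes, being the lowest of the 8 libraries for 32 of the 37, against 29.2% of all genes tested. The log2 fold change of each member is therefore given with and without library A.

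No member passed the test between the days, but nearly all had somewhat higher values on day 41, and the difference was smaller without library A. The limma-trend test with Benjamini-Hochberg adjustment called 0 of the 37 members and 6 of all 12582 genes (0.0477%), and the smallest adjusted p of a member was 0.211. The log2 fold change, day 41 minus day 35 on the log2(RPKM + 1) scale, was above 0 for 34 members and below 0 for 3, where 52.6% of all genes were above 0. Its median was 0.17 over the members and 0.01 over all genes. The members vary together, so these counts are not 37 separate observations. Without library A, 21 members were above 0 and 16 below, where 52.2% of all genes were above 0, and the median over the members was 0.02. That fit called 0 members and 43 genes (0.342%). Library A is of day 35 and was picked out as low in these same genes, so a smaller median difference without it was fixed in advance. The count of genes called over the whole table was 0 without B, C, D, E or F. In bulk RNA, fewer dividing cells and less of these RNAs per cell cannot be told apart.

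**Figure D1:**
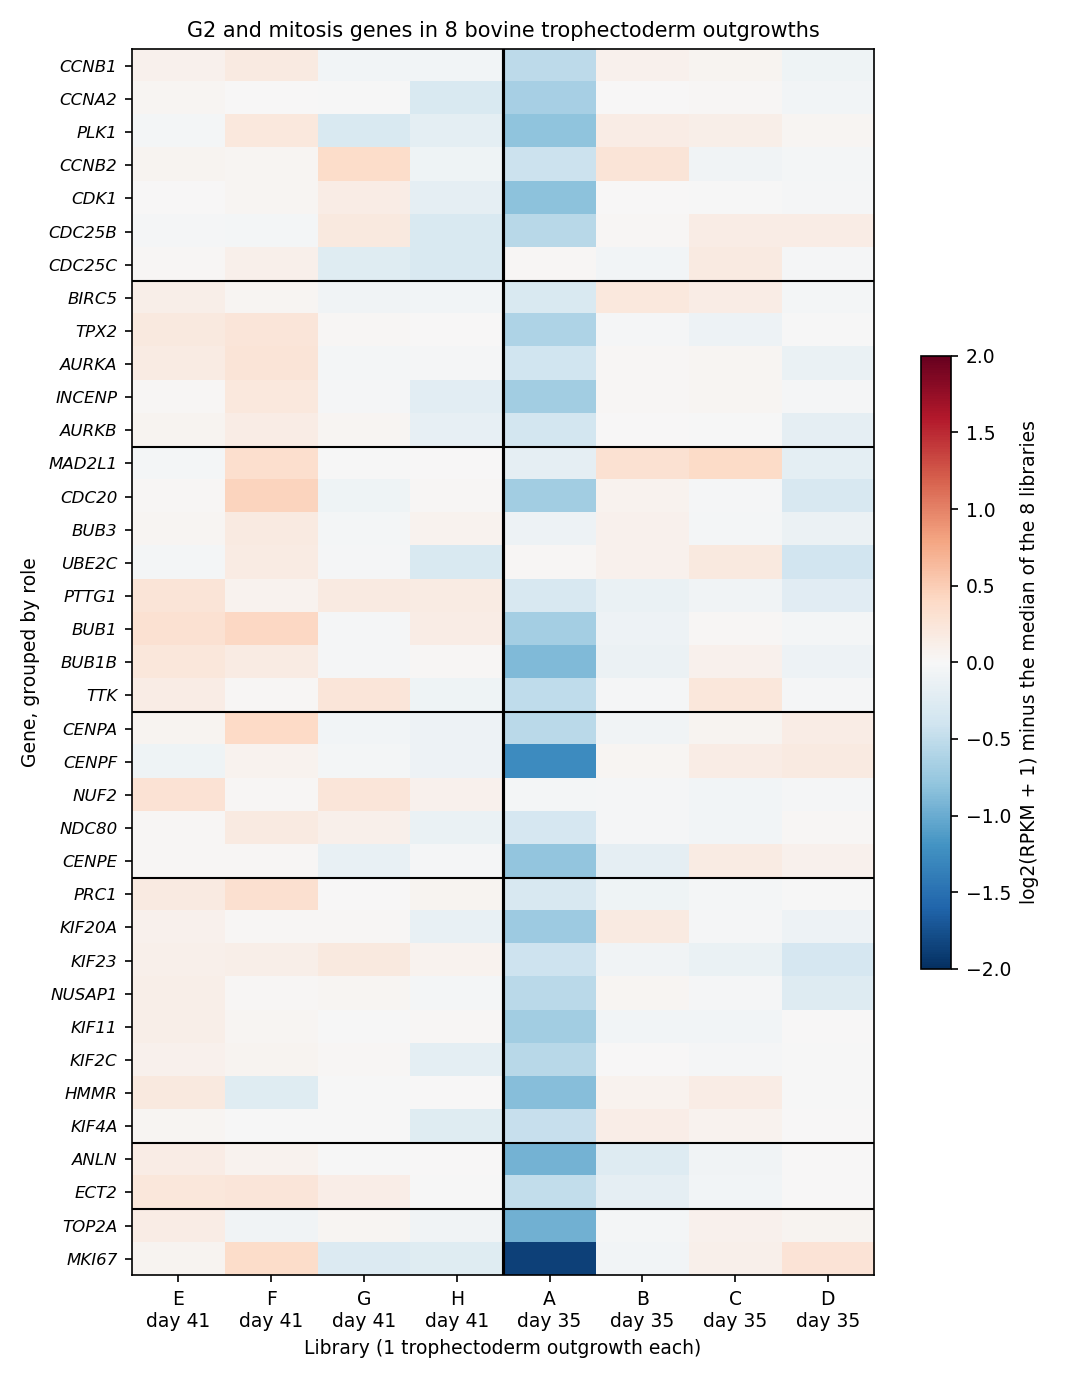
Levels of the 37 members in each library, as log2(RPKM + 1) minus the gene's median over the 8 libraries, with genes in rows grouped by role and the day 41 libraries left of the day 35 libraries. Blue is lower and red higher than the median, and the column of library A is blue in nearly every row, deepest for MKI67, CENPF and TOP2A.

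At an unadjusted p under 0.05, 5 members differed between the days by limma-trend, against 11.7% of all genes in either direction and 5.9% higher on day 41. They were PTTG1, KIF23, ECT2, PRC1 and BUB1, all higher on day 41. The count was 3 without A (19.6% of all genes), 4 without B (8.27%), 4 without C (8.94%), 7 without D (13.6%), 2 without E (8.35%), 3 without F (9.14%), 5 without G (10.8%) and 4 without H (9.14%). PTTG1 and KIF23 were the members below that p in every fit that left out 1 library. All 4 day 41 libraries lay above all 4 day 35 libraries in 5 members, PTTG1, KIF23, PRC1, NUF2 and TPX2, against 4.26% of all genes, and no member showed the reverse. Counted in either direction, the days did not overlap in 8.2% of all genes. Without A that count was again 5 of 37, against 19.5% of all genes. It was 6 without B (9.86%), 7 without C (10.2%), 8 without D (15.8%), 5 without E (10.1%), 5 without F (11.3%), 7 without G (13.2%) and 10 without H (11.6%). With library totals as the scaling it was 3 (8.62%), and with the exon-length correction described below 8 (9.35%), or 8 without A (20.4%).

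PTTG1 is the securin that holds separase inactive until anaphase (ENSBTAG00000012184, chromosome 7, 72005667 to 72013595, plus strand, on the build ARS-UCD1.2). It stood at 48.2, 42.4, 45.8 and 45.0 RPKM at day 41, against 32.2, 36.7, 38.2 and 34.1 RPKM at day 35. The days did not overlap, and the lowest day 41 library, F, lay above the highest day 35 library, C. The log2 fold change was 0.35 (SE 0.08, 95% interval 0.17 to 0.54), with an adjusted p of 0.211 by limma-trend. It was 0.31 without library A (adjusted p = 0.0947 by limma-trend). PTTG1 was also the 1 member called when limma-voom was run on the recovered reads with a quality weight for each library, with a log2 fold change of 0.33 and an adjusted p of 0.0379. That fit called 5.18% of all genes and gave library A a weight of 0.133.

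KIF23 is the kinesin of centralspindlin, which bundles the midzone microtubules before the cell divides (ENSBTAG00000009983, chromosome 10, 16268432 to 16328199, plus strand). It was at 41.0, 41.3, 44.0 and 40.1 RPKM at day 41, against 28.3, 36.3, 34.6 and 29.9 RPKM at day 35. The 4 day 41 libraries lay close together, and above all of day 35, where A and D were the low ones. Its log2 fold change was 0.36 (SE 0.10, 95% interval 0.14 to 0.58, adjusted p = 0.235 by limma-trend), and 0.30 without library A (adjusted p = 0.115). With quality weights its adjusted p by limma-voom was 0.0563. In the authors' deposited table KIF23 has the smallest FDR of the members, 0.226, and PTTG1 has 0.310.

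**Figure D2:**
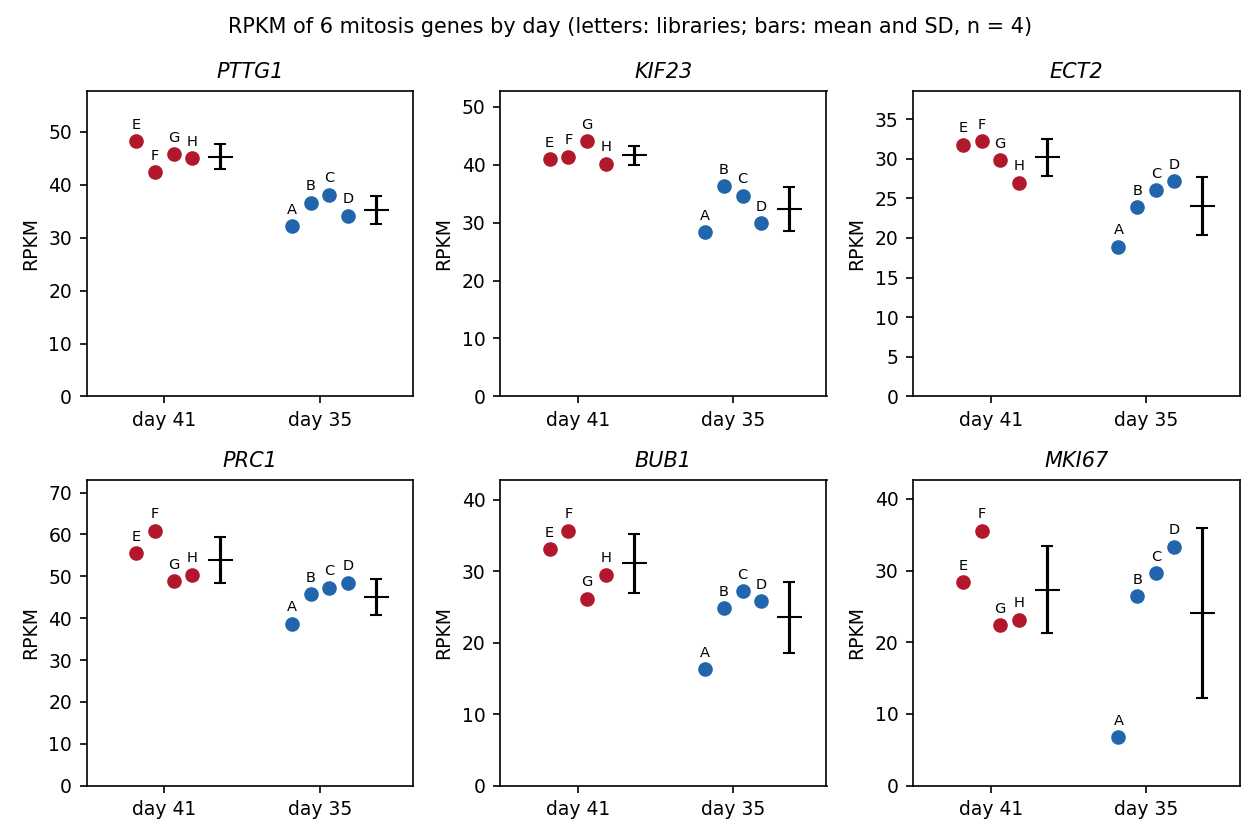
RPKM of PTTG1, KIF23, ECT2, PRC1, BUB1 and MKI67 in each library, day 41 at the left and day 35 at the right, with letters for the libraries and bars for the mean and SD (n = 4). The days do not overlap in PTTG1, KIF23 and PRC1, while library A is far below the other libraries in MKI67.

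Without library A the genes of mitotic entry had log2 fold changes on either side of 0, from -0.19 for PLK1 to 0.04 for CCNB2. Of the 7, 6 had a log2 fold change above 0, with a median of 0.11, and without A 3 did, with a median of -0.053. None was called by limma-trend. CDK1, the kinase that starts mitosis, was at 25.1, 25.6, 27.8 and 21.97 RPKM at day 41, against 13.8, 25.1, 25.0 and 24.6 RPKM at day 35. Library A was the only one far from the rest, and B, C and D lay inside the day 41 range. For CDK1 the log2 fold change was 0.21 (95% interval -0.22 to 0.64) with all libraries and 0.01 without A.

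CCNB1, cyclin B1, was the most abundant cyclin of the set, at 82.4, 87.6, 74.6 and 74.5 RPKM at day 41, against 53.6, 81.9, 80.4 and 72.9 RPKM at day 35. Its days overlapped, with A the lowest library, and its log2 fold change was 0.16 with all libraries and 0.02 without A. CCNA2, cyclin A2, averaged 40.8 ± 4.44 RPKM at day 41 and 38.2 ± 7.88 RPKM at day 35, and CCNB2, cyclin B2, 24.9 ± 3.59 RPKM at day 41 and 22.3 ± 4.45 RPKM at day 35. The log2 fold change of CCNA2 was 0.11 with all libraries and -0.05 without A, and that of CCNB2 0.16 and 0.04. PLK1, a kinase of spindle assembly and of cytokinesis, was at 26.1, 31.2, 21.4 and 23.2 RPKM at day 41, against 14.8, 29.8, 29.2 and 27.6 RPKM at day 35. The days overlapped, and the sign turned with library A, since the log2 fold change was 0.04 with all libraries and -0.19 without A (adjusted p = 0.444 by limma-trend).

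The phosphatases CDC25B and CDC25C, which remove the inhibitory phosphates from CDK1, did not follow the same pattern across libraries. CDC25B was at 12.3, 12.2, 14.5 and 10.0 RPKM at day 41, against 8.25, 12.9, 14.1 and 14.0 RPKM at day 35. CDC25C was at 6.46, 6.90, 5.19 and 4.98 RPKM at day 41, against 6.46, 6.10, 7.29 and 6.25 RPKM at day 35. CDC25B had a log2 fold change of 0.01 with all libraries and -0.15 without A. CDC25C was 1 of the 2 members that were not lower in library A than the median of the other 7, and its lowest library was H. Its log2 fold change, -0.14 (adjusted p = 0.708 by limma-trend), was the lowest of the members with all libraries, and it was again -0.14 without A.

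Of the 5 genes of the Aurora kinases and their partners, TPX2 differed most. TPX2, which activates AURKA on spindle microtubules, was at 58.6, 60.5, 51.7 and 51.5 RPKM at day 41, against 33.0, 50.3, 47.2 and 50.4 RPKM at day 35. The days did not overlap, but H and D stood next to each other. The log2 fold change was 0.31 (95% interval -0.02 to 0.63, adjusted p = 0.451 by limma-trend) and 0.17 without A. AURKA, the kinase of the spindle poles, averaged 39.9 ± 4.12 RPKM at day 41 and 34.4 ± 4.79 RPKM at day 35, with a log2 fold change of 0.21 (adjusted p = 0.539 by limma-trend) and 0.12 without A.

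The other 3 genes encode the chromosomal passenger complex, which corrects wrong attachments at the centromere. AURKB, its kinase, averaged 29.4 ± 2.68 RPKM at day 41 and 26.3 ± 3.28 RPKM at day 35, and INCENP, its scaffold, 33.9 ± 4.25 RPKM at day 41 and 30.6 ± 6.86 RPKM at day 35. BIRC5, survivin, which targets the complex to chromatin, was the most abundant, at 69.9 ± 4.32 RPKM at day 41 and 70.2 ± 10.9 RPKM at day 35. The log2 fold change with all libraries and without A was 0.16 and 0.08 for AURKB, 0.17 and -0.01 for INCENP, and 0.01 and -0.09 for BIRC5. Over the 5 genes the median log2 fold change was 0.17 with all libraries and 0.08 without A, and 0 were called in either fit.

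Among the 8 genes of the spindle checkpoint and of anaphase control, the kinase BUB1 had the largest log2 fold change of the 37 members with all libraries. BUB1 (ENSBTAG00000021181, chromosome 11, 1585412 to 1618575, plus strand) was at 33.1, 35.7, 26.2 and 29.5 RPKM at day 41, against 16.3, 24.8, 27.2 and 25.8 RPKM at day 35. Libraries G and C overlapped, and A was far below the rest. BUB1 had a log2 fold change of 0.40 (SE 0.17, adjusted p = 0.407 by limma-trend), and 0.25 without A (adjusted p = 0.263). BUB1B, the checkpoint protein BubR1, was at 31.4, 29.9, 26.0 and 27.2 RPKM at day 41, against 13.9, 24.5, 28.4 and 24.8 RPKM at day 35. Its days overlapped, and its log2 fold change was 0.35 with all libraries and 0.14 without A.

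CDC20, which the checkpoint holds back and which then activates the anaphase-promoting complex, was at 57.8, 77.4, 53.3 and 57.5 RPKM at day 41, against 34.7, 59.5, 55.9 and 45.4 RPKM at day 35. Library F was high and A low, and the days overlapped (log2 fold change 0.34, adjusted p = 0.516 by limma-trend, and 0.19 without A). TTK, the kinase MPS1 that starts checkpoint signalling, averaged 11.7 ± 1.26 RPKM at day 41 and 10.5 ± 2.28 RPKM at day 35. BUB3, which carries BUB1 and BUB1B to the kinetochore, averaged 55.0 ± 3.47 RPKM at day 41 and 51.1 ± 3.48 RPKM at day 35. The lowest library of BUB3 was D and not A, and its days overlapped. With all libraries and without A the log2 fold change was 0.16 and 0.02 for TTK, and 0.11 and 0.09 for BUB3.

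UBE2C, the ubiquitin-conjugating enzyme of the anaphase-promoting complex, was at 49.6, 57.5, 50.7 and 41.3 RPKM at day 41, against 51.9, 54.6, 58.6 and 39.2 RPKM at day 35. It was the other member that was not lower in A, and its log2 fold change was -0.03 with all libraries and -0.02 without A. Exons of DNTTIP1 on the same strand cover 14.7% of the exon length of UBE2C, so part of its reads could belong to that gene. MAD2L1, which binds and holds back CDC20, averaged 333 ± 42.9 RPKM at day 41 and 338 ± 71.9 RPKM at day 35, the highest level of the set, with a log2 fold change of -0.0047 with all libraries and -0.09 without A. Its gene model lies on an unplaced scaffold with 438 exon bases, so that level is uncertain.

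Of the 5 kinetochore and centromere genes, NUF2 was level over the day 35 libraries, while CENPF and CENPE were far lower in library A than in the rest. That contrast was smaller after the exon-length correction described below. NUF2, which with NDC80 grips the microtubule, was at 16.8, 13.7, 16.2 and 14.4 RPKM at day 41, against 13.3, 13.4, 13.0 and 13.3 RPKM at day 35. The days did not overlap, although F lay next to B. The day 35 libraries had an SD of 0.171 RPKM and A was level with the rest. For NUF2 the log2 fold change was 0.19 (adjusted p = 0.448 by limma-trend), and again 0.19 without A. NDC80 averaged 10.997 ± 1.09 RPKM at day 41 and 9.88 ± 1.16 RPKM at day 35, and CENPA, the centromeric histone, 27.4 ± 4.74 RPKM at day 41 and 24.4 ± 4.88 RPKM at day 35. With all libraries and without A the log2 fold change was 0.14 and 0.06 for NDC80, and 0.17 and 0.03 for CENPA.

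CENPF, a large protein of the outer kinetochore, was at 18.7, 20.9, 19.3 and 18.4 RPKM at day 41, against 7.75, 20.4, 22.1 and 22.7 RPKM at day 35. Libraries C and D lay above every day 41 library and A far below, and the log2 fold change was 0.18 with all libraries and -0.16 without A (adjusted p = 0.271 by limma-trend). CENPE, the kinesin that brings chromosomes to the spindle equator, was the least abundant member, at 5.44 ± 0.341 RPKM at day 41 and 5.00 ± 1.61 RPKM at day 35. In library A it was at 2.80 RPKM, against 4.83 to 6.40 RPKM in the other 7 libraries, and its log2 fold change was 0.15 with all libraries and -0.06 without A.

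All 8 spindle motors and microtubule-binding proteins had a log2 fold change above 0, with a median of 0.19, and without library A 4 of the 8 did, with a median of 0.04. PRC1, the crosslinker of antiparallel microtubules in the midzone (ENSBTAG00000018643, chromosome 21, 21676334 to 21699409, plus strand), was at 55.5, 60.9, 48.8 and 50.3 RPKM at day 41, against 38.7, 45.7, 47.3 and 48.5 RPKM at day 35. The days did not overlap, but G and D were almost equal. Its log2 fold change was 0.25 (SE 0.10, adjusted p = 0.405 by limma-trend), and 0.18 without A (adjusted p = 0.286). KIF11, the motor that pushes the spindle poles apart, averaged 22.7 ± 0.949 RPKM at day 41 and 19.3 ± 4.15 RPKM at day 35, and 21.4 ± 0.621 RPKM at day 35 without A (n = 3), with a log2 fold change of 0.24 with all libraries and 0.08 without A.

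KIF20A, a kinesin of the midzone, averaged 41.1 ± 2.94 RPKM at day 41 and 37.6 ± 9.50 RPKM at day 35, and KIF2C, which takes microtubules apart at the centromere, 19.5 ± 1.73 RPKM at day 41 and 17.9 ± 3.24 RPKM at day 35. KIF4A, a chromosome-bound kinesin, averaged 11.7 ± 1.07 RPKM at day 41 and 11.8 ± 2.20 RPKM at day 35, with a log2 fold change near 0 whose sign changed with the setting. NUSAP1, which bundles spindle microtubules, averaged 28.5 ± 1.35 RPKM at day 41 and 24.4 ± 4.42 RPKM at day 35. HMMR, a hyaluronan receptor that also binds the spindle, averaged 19.4 ± 2.46 RPKM at day 41 and 17.9 ± 5.18 RPKM at day 35. The sign turned without A in KIF20A (log2 fold change 0.16 with all libraries, -0.03 without), KIF2C (0.13 and -0.0053), HMMR (0.15 and -0.08) and KIF4A (0.0026 and -0.13), but not in NUSAP1 (0.23 and 0.11). Exons of a gene on the opposite strand cover 12.3% of NUSAP1, 7.57% of KIF20A and 1.31% of HMMR, and whether the counting used strand is not given in the sources used here.

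The cytokinesis regulators ECT2 and ANLN both kept a log2 fold change above 0 without library A. ECT2, the exchange factor that activates RHOA at the cell equator (ENSBTAG00000023814, chromosome 1, 94709117 to 94769544, minus strand), was at 31.7, 32.2, 29.8 and 27.0 RPKM at day 41, against 18.9, 23.9, 26.0 and 27.2 RPKM at day 35. Only H and D overlapped. ECT2 had a log2 fold change of 0.33 (SE 0.12, adjusted p = 0.360 by limma-trend), and 0.22 without A (adjusted p = 0.203). ANLN, anillin, the scaffold of the contractile ring, was at 136, 128, 122 and 122 RPKM at day 41, against 63.2, 102, 116 and 122 RPKM at day 35. It was the most abundant member after MAD2L1, and A was far below the other libraries. Its log2 fold change was 0.37 (adjusted p = 0.4997 by limma-trend), and 0.16 without A.

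The proliferation marker MKI67, which coats mitotic chromosomes, varied most between libraries. It was at 28.4, 35.6, 22.4 and 23.1 RPKM at day 41, against 6.77, 26.4, 29.6 and 33.3 RPKM at day 35. Library A had 0.227 of the mean of B, C and D, which lay inside the day 41 range. Its log2 fold change was 0.36 (SE 0.44, 95% interval -0.64 to 1.36, adjusted p = 0.801 by limma-trend) and -0.14 without A. TOP2A, the topoisomerase that untangles chromatids, was at 50.1, 42.9, 46.2 and 42.9 RPKM at day 41, against 22.7, 43.9, 47.6 and 46.9 RPKM at day 35. Its days overlapped, and its log2 fold change was 0.23 with all libraries and -0.02 without A.

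**Figure D3:**
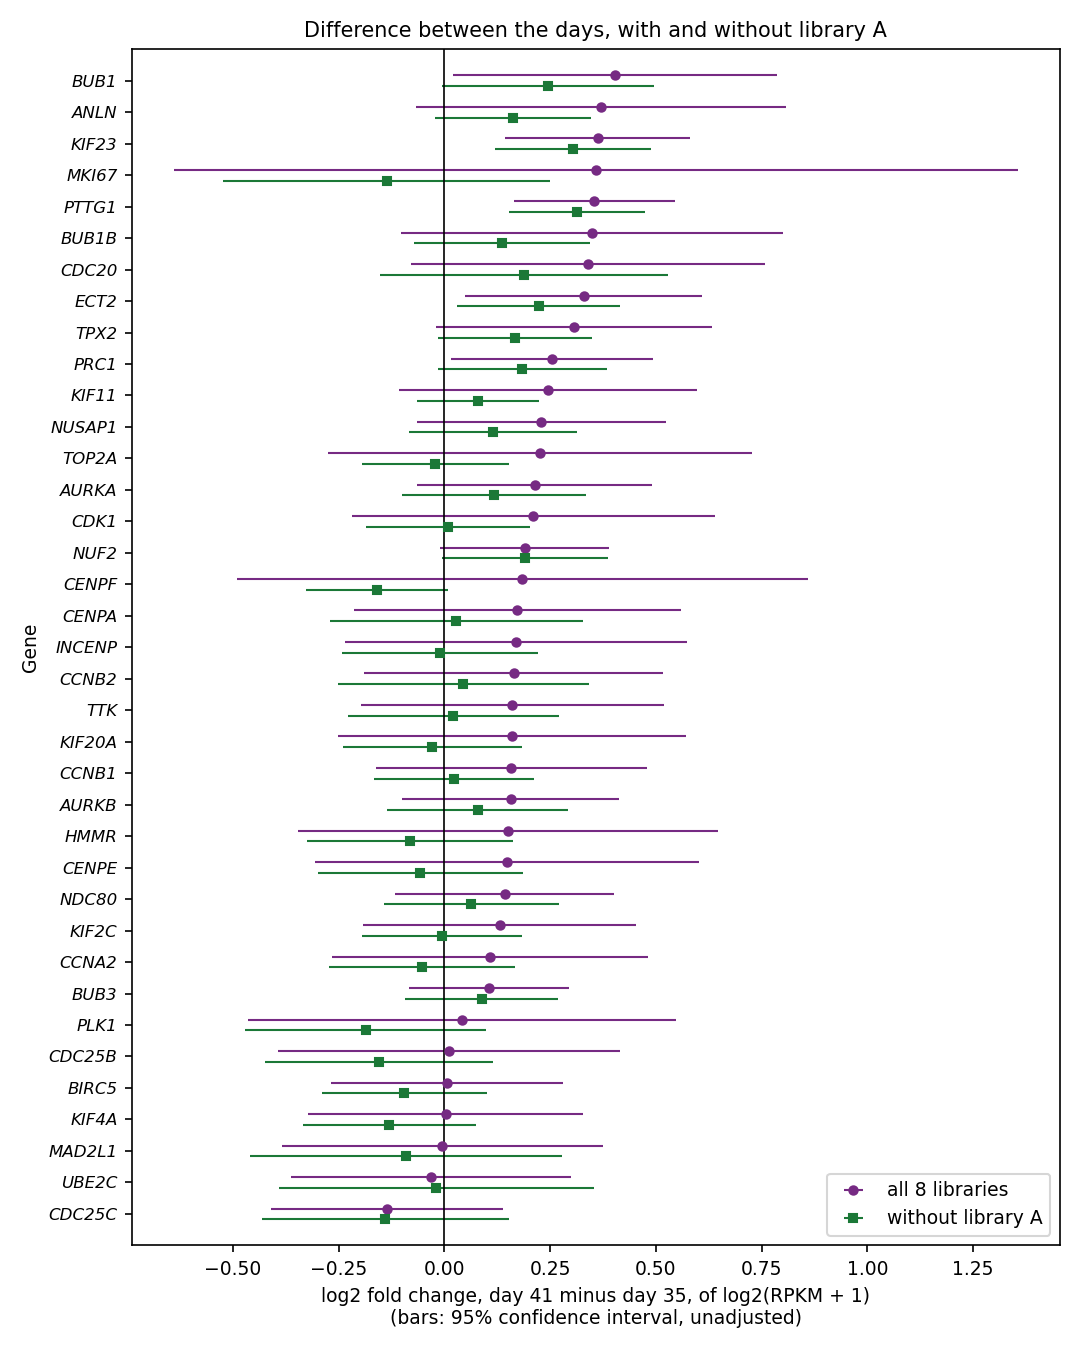
Log2 fold change of each member, day 41 minus day 35, with its 95% interval, from all 8 libraries (circles) and without library A (squares). With all libraries 34 of 37 circles lie right of 0, and without A 21 of 37 squares do, with PTTG1 and KIF23 farthest to the right.

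In the authors' deposited table, which rests on the same libraries, 29 members have a log2 fold change above 0 and 8 below, where 49.9% of all genes are above 0. None of the 37 has an FDR under 0.05 there, a level that 263 genes (1.76%) pass. The members' mean log2(RPKM + 1) was 5.04, 5.08, 4.96 and 4.87 in the day 41 libraries, against 4.38, 4.96, 4.99 and 4.90 in the day 35 libraries. Library A was thus the one apart, and the other 3 day 35 libraries lay inside the day 41 range. The means were 4.99 ± 0.0925 on day 41 and 4.81 ± 0.291 on day 35, or 4.95 ± 0.0461 on day 35 without A (n = 3). A library of day 41 was the highest for 29 members, most often F with 14 and E with 10, while H was the highest for 0. Library A was also the highest for 0 members, so this count is not separate from the low values of A. The share over all genes was not counted.

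The median member was lower in library A than in the other libraries in every range of exon length. Over all genes, those with a long total exon length were lower in A. The difference of log2(RPKM + 1) between A and the median of the other 7 libraries was 0.28 in the median gene of up to 1500 exon bases and -0.51 in the median gene of over 6000 bases. The medians of the 2 members up to 1500 bases and of the 3 over 6000 bases were -0.29 and -1.29. Over all 37 members the median was -0.58, against 0.01 over all genes tested. In other lists of cell cycle genes, described below, it was also under 0, except D cyclins and CDK inhibitors (0.31). It was -0.62 for spindle, kinesin and cytokinesis, -0.61 for condensin and -0.44 for G2/M transcription and mitotic entry control. For S phase it was -0.42, for kinetochore and centromere -0.27, and for anaphase-promoting complex, separase and cohesin -0.17. Of the 37 members, 35 were below the other libraries in A, against 48.9% of all genes, and 36 were below the median of all genes in their own range of length. MKI67 was at -1.92, CENPF at -1.29 and TOP2A at -0.99. After the trend with exon length was taken out of each library, the members' median in A was -0.53, with 35 of 37 below. MKI67 was then at -1.20, CENPF at -0.57 and TOP2A at -0.65. With that correction CENPE went from -0.81 to -0.19, and NUF2 from -0.05 to -0.17. The length ranges and that correction were chosen after library A was seen to be low.

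**Figure D4:**
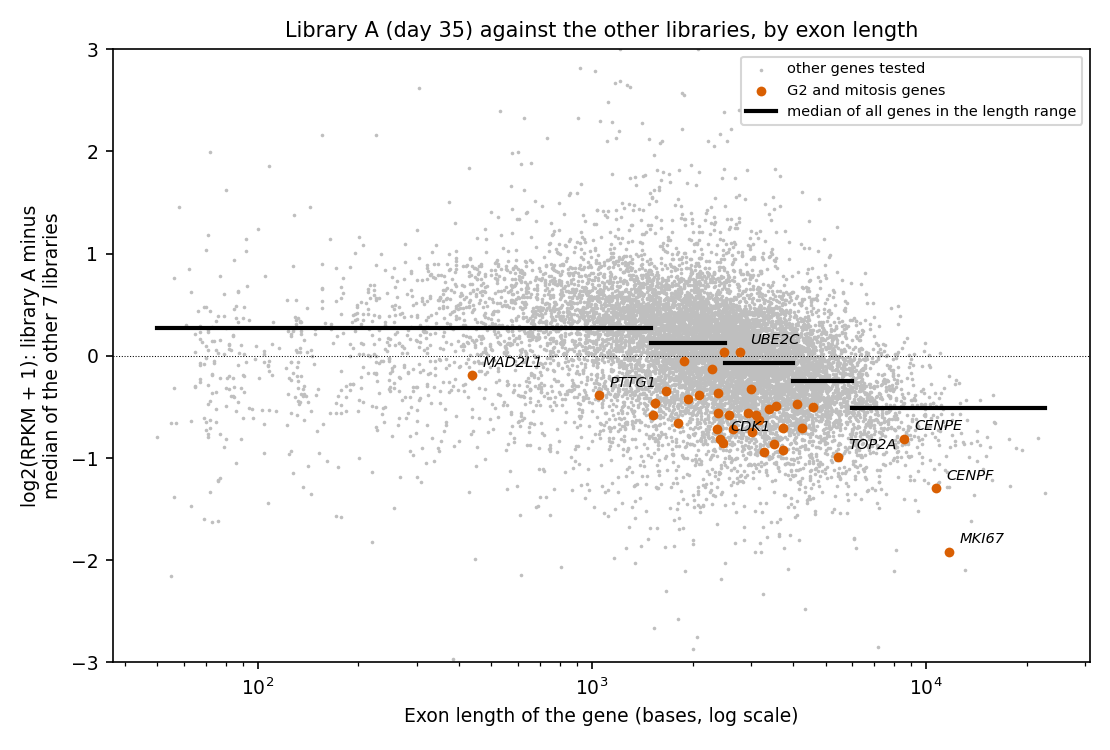
Difference of log2(RPKM + 1) between library A and the median of the other 7 libraries against exon length in bases (log axis), for all genes tested (grey), the members (orange) and the median of all genes in each range of length (bars). The bars fall with length, and 36 of the 37 members lie below the bar of their range, while 19 genes lie beyond the plotted limits of 3.

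With the same correction the fit between the days gave 33 members above 0 and 4 below, where 49.9% of all genes were above 0, a median log2 fold change of 0.16, and 0 members called (13 genes called, 0.103%). Correction and removal of A together gave 20 members above 0 and 17 below, where 49.3% of all genes were above 0, a median of 0.01 and 0 called. The marker sums of library A were 4756 RPKM for trophectoderm (3049 to 4648 in the other 7), 248 for binucleate and later trophoblast (297 to 472), 23.7 for hypoblast and yolk sac (16.3 to 473) and 30.7 for mesoderm and stroma (4.15 to 247). They were 263 RPKM for immune markers (184 to 289) and 2.17 for cumulus and granulosa (2.32 to 5.09). The sums ran over the genes in the table, 10 of 10, 6 of 8, 9 of 10, 10 of 10, 3 of 6 and 5 of 7 in that order, of which 0 were at 0 in all libraries. Single genes carry most of these sums. KRT8 (2748 RPKM in A) and KRT18 (1359) make up most of the trophectoderm sum, while GATA3 was lowest in A, at 78.9 RPKM. HAND1 gave 223 RPKM of the binucleate sum in A, where PRP1 (18.3) and CSH2 (5.53) were above libraries G and C. AIF1 gave 253 RPKM of the immune sum in A, where CD14 was at its lowest, 7.70 RPKM. FOXL2 gave 1.18 RPKM of the cumulus sum, and INHA was highest in A, at 0.45 RPKM. Their part in the low values of A was not tested, nor was that of exon length or of the authors' scale factor, which was 0.897 for A and 1.00 to 1.04 for the others.

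Other genes of the cell cycle were taken from 7 lists with 158 symbols, of which 155 could be tested. Of these, limma-trend called 0 with all libraries and 0 without A. The genes named below are among those of smallest p in their list, a choice that favours days that do not overlap. Over all genes tested, the days did not overlap in 8.2%, and quality-weighted limma-voom called 5.18%. Among 26 tested spindle, kinesin and cytokinesis genes outside the 37, 23 had a log2 fold change above 0, with a median of 0.17, and without A 15 did, with a median of 0.01. STMN1, stathmin, which destabilises microtubules, was at 51.0, 40.9, 47.8 and 38.6 RPKM at day 41, against 30.3, 33.8, 35.2 and 24.6 RPKM at day 35. Its days did not overlap, and its log2 fold change was 0.51 both with all libraries and without A (adjusted p = 0.233 and 0.137 by limma-trend). RACGAP1, the partner of KIF23 in centralspindlin, was at 52.4, 52.7, 45.0 and 52.3 RPKM at day 41, against 30.2, 42.9, 43.1 and 41.7 RPKM at day 35, again without overlap (log2 fold change 0.36, adjusted p = 0.336 by limma-trend, and 0.24 without A).

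Of 32 other kinetochore and centromere genes, 20 were above 0 with all libraries (median 0.06) and 14 without A (median -0.01). CDCA8, borealin, a further subunit of the chromosomal passenger complex, was at 24.6, 27.2, 28.3 and 25.8 RPKM at day 41, against 17.2, 23.1, 18.6 and 20.6 RPKM at day 35. SGO2, a shugoshin that protects centromeric cohesin, was at 8.98, 9.30, 8.38 and 8.18 RPKM at day 41, against 3.95, 6.99, 6.76 and 6.89 RPKM at day 35. The days overlapped in neither gene, and quality-weighted limma-voom called SGO2 higher (log2 fold change 0.38, adjusted p = 0.0429). By limma-trend the log2 fold change with all libraries and without A was 0.40 and 0.34 for CDCA8, and 0.47 and 0.30 for SGO2.

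Of 27 genes of the anaphase-promoting complex, separase and cohesin, 20 were above 0 with all libraries (median 0.09) and 16 without A (median 0.05). The cohesin subunit RAD21 was at 60.2, 60.4, 61.8 and 59.9 RPKM at day 41, against 50.8, 48.3, 47.5 and 54.0 RPKM at day 35, and SMC3 at 27.8 ± 1.05 RPKM at day 41 and 22.03 ± 1.96 RPKM at day 35. ANAPC11 and ANAPC15, subunits of the anaphase-promoting complex, went the other way. Other subunits of that complex had log2 fold changes on either side of 0. ANAPC11, its RING subunit, averaged 2.01 ± 0.241 RPKM at day 41 and 3.43 ± 0.830 RPKM at day 35, with a log2 fold change of -0.54 (adjusted p = 0.236 by limma-trend). ANAPC15 was at 15.98, 14.1, 16.4 and 14.3 RPKM at day 41, against 23.9, 27.8, 25.7 and 17.5 RPKM at day 35. The days did not overlap in any of these 4 genes, which were picked as those of smallest p in the list, against 8.2% of all genes. Quality-weighted limma-voom, which called 5.18% of all genes, called RAD21 and SMC3 higher and ANAPC15 lower, with an adjusted p of 0.0338, 0.0441 and 0.0352. With equal weights the adjusted p by limma-trend was 0.236, 0.231 and 0.211. Without A the log2 fold change was 0.28 for RAD21, 0.27 for SMC3, -0.58 for ANAPC15 and -0.57 for ANAPC11.

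Of 8 condensin genes, 4 were above 0 with all libraries (median 0.02) and 1 without A (median -0.08). Of 19 genes of G2/M transcription and mitotic entry control, 10 were above 0 with all libraries (median 0.04) and 6 without A (median -0.08). The S phase list had 22 of 32 genes above 0 with all libraries (median 0.06). Without A it had 14 above and 18 below (median -0.05). CCNE1, cyclin E1, had the smallest p of that list with all libraries and does not stand for the list. It was at 15.2, 19.4, 17.9 and 14.5 RPKM at day 41, against 10.3, 14.1, 14.1 and 13.2 RPKM at day 35, with no overlap (log2 fold change 0.35, adjusted p = 0.368 by limma-trend, and 0.25 without A). The list of D cyclins, their kinases and CDK inhibitors was the one whose median lay below 0, at -0.11, with 5 of 11 genes above 0. CDKN1A, the inhibitor p21, was at 37.6, 32.7, 40.4 and 42.9 RPKM at day 41, against 64.3, 49.4, 54.6 and 63.3 RPKM at day 35, with no overlap. CDKN1A had a log2 fold change of -0.58 (adjusted p = 0.189 by limma-trend) and -0.53 without A, and quality-weighted limma-voom called it lower (adjusted p = 0.0331). Without A the median of that list was 0.05.

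**Figure D5:**
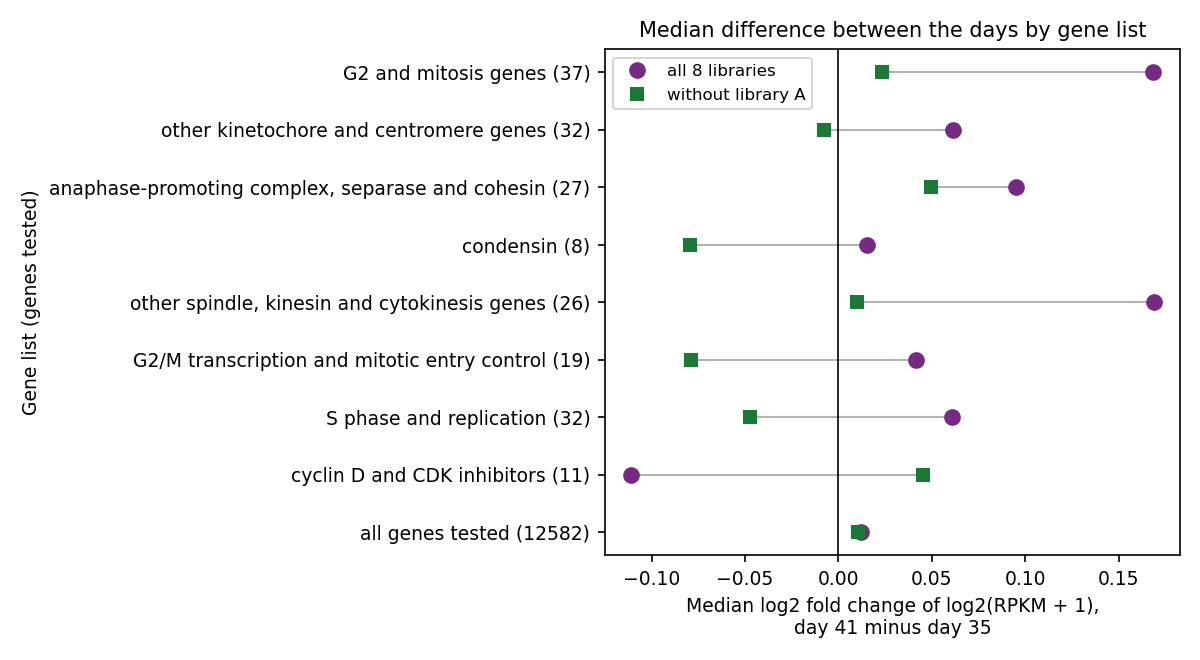
Median log2 fold change of log2(RPKM + 1), day 41 minus day 35, for the 37 members, the 7 other lists and all genes tested, from all 8 libraries (circles) and without library A (squares). Without A the members' median is 0.02, against 0.17 with all libraries, and that of all genes is 0.01.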

How the data were processed

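RNA of bovine trophectoderm outgrowths was sequenced in 8 libraries, 4 of day 41 and 4 of day 35. The submitters' processing notes name the build ARS-UCD1.2 and, with no version, the tools FastQC, HISAT2, edgeR and featureCounts. The deposited table gives RPKM per gene and library, computed by the authors, with the exon length. Also deposited is the comparison made by the authors, as a log2 fold change, a mean log2 count level, a likelihood ratio score, a p-value and an FDR per gene. RPKM times exon length gave whole reads within 0.01 for 100% of values.

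The days were compared with limma 3.58.1 (R 4.3.3) by limma-trend on log2(RPKM + 1), two-sided and without covariate, over 12582 genes at 0.5 RPKM or more in at least 4 libraries. P-values were adjusted over all of them (Benjamini-Hochberg), with a threshold of 0.05. The pseudocount of 1 understates changes of low genes. The steps were tested on simulated data whose changes were larger than those of the members and which held no outlying library. Power for changes as small as those of the members was not tested. The members and the lists were chosen with earlier results of these data known. In each other list, genes that passed and otherwise up to 4 of smallest p could be named, as could the 8 genes correlated most and the 8 least with the members' mean. The alternatives were other scalings, filters and a pseudocount of 0.1, limma-voom fits to the reads, with quality weights or equal ones, and leaving out each library. An exon-length correction, alone and without library A, was added after seeing the data. Promoters and other sequences were not analysed here. Reads lack molecular identifiers, so error was taken from the spread between outgrowths.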

Additional observations from a re-analysis of the deposited data

Results flagged for a closer look

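Within each day of 4 libraries, the lowest or highest library of a member was set apart when its gap to the nearest other exceeded, as a share of the whole range, Dixon's 95% critical value for 4 samples. This held for 10 values in 74 groups, where chance flags about 1 in 20 groups, and the groups are not independent because the members vary together. Library A of day 35 was the low one in 8 of them, with 26.53 RPKM of CCNA2, 13.8 of CDK1, 7.754 of CENPF, 20.31 of INCENP, 13.15 of KIF11, 13.09 of KIF2C, 14.84 of PLK1 and 22.74 of TOP2A. On day 41, library H was low in CCNA2, at 34.14 RPKM, and library F was high in MAD2L1, at 396.6 RPKM.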

How the results depend on the processing

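No member was called under any setting except PTTG1 under limma-voom with quality weights (1 member called). The members' median log2 fold change stayed above 0 in each, at 0.02 without A to 0.25 without C when 1 library was left out, 0.04 with quality weights and 0.01 with the exon-length correction without library A. The number of genes called over the whole table was 3 with a pseudocount of 0.1, 3 with no filter on low values, 2 with limma-voom, 652 with quality weights, 13 with the exon-length correction and 68 with that correction without A, and it was 0 to 43 when 1 library was left out. The cause of these changes was not tested. Members with a higher value on day 41 numbered 20 with the correction without A and 21 to 36 when 1 library was left out. Members whose days did not overlap numbered 3 with library totals as the scaling (8.62% of all genes), 8 with the correction (9.35%), 8 with it without A (20.4%), and 5 to 10 when 1 library was left out (9.86% of all genes without B to 19.5% without A).

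The sign of small fold changes turned in some settings. KIF4A was at -0.000690 with limma-voom and -0.000191 with median-of-ratios scaling, and MAD2L1 at 0.023 with library totals. With quality weights BIRC5 was at -0.069, CCNA2 at -0.021, CDC25B at -0.16, CENPE at -0.032, CENPF at -0.14, HMMR at -0.00054, KIF4A at -0.10, MKI67 at -0.034 and PLK1 at -0.16. With the exon-length correction CDC25B was at -0.023, KIF4A at -0.050 and MAD2L1 at 0.035. With that correction without A, BIRC5 was at -0.11, CCNA2 at -0.071, CDC25B at -0.17, CDK1 at -0.00403, CENPE at -0.012, CENPF at -0.093, HMMR at -0.089, INCENP at -0.024, KIF20A at -0.0435, KIF2C at -0.018, KIF4A at -0.13, MKI67 at -0.061, PLK1 at -0.20 and TOP2A at -0.018.

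When 1 library was left out, the fold changes ranged from a value without A below 0 to a highest value above 0 in 13 members: BIRC5 from -0.095 to 0.077, CCNA2 from -0.053 to 0.19, CDC25B from -0.15 to 0.096, CENPE from -0.057 to 0.26, CENPF from -0.16 to 0.32, HMMR from -0.082 to 0.25, INCENP from -0.0100 to 0.24, KIF20A from -0.029 to 0.28, KIF2C from -0.0053 to 0.19, KIF4A from -0.13 to 0.069, MKI67 from -0.14 to 0.58, PLK1 from -0.19 to 0.13 and TOP2A from -0.022 to 0.32. MAD2L1 ranged from -0.095 to 0.099 and UBE2C from -0.15 to 0.054. PTTG1 ranged from 0.31 to 0.39 and KIF23 from 0.30 to 0.42.

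No paired analysis was possible because the days share only 1 replicate number in the titles and the table's columns carry none. Whether that number stands for the same outgrowth on both days is not stated, and the fits treat all libraries as independent. With 4 libraries per day, the 95% intervals of most members include 0, which does not show that the days are equal. Each member had 1550 reads or more in each library, and the intervals come from the spread between outgrowths.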

Other observations

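Ratios of RPKM between partner genes, chosen after seeing the data and given as a description without a test, differed in how even they were across libraries. TPX2 over AURKA, an activator and its kinase, was 1.40, 1.35, 1.42 and 1.40 in the day 41 libraries E to H, against 1.19, 1.34, 1.23 and 1.49 in the day 35 libraries A to D. KIF23 over RACGAP1, the subunits of centralspindlin, averaged 0.827 ± 0.0999 on day 41 and 0.826 ± 0.0916 on day 35 (SD, n = 4 each), with a range of 0.717 to 0.977 over the 8 libraries. MKI67 over TOP2A was 0.567, 0.8292, 0.484 and 0.539 in the day 41 libraries, against 0.298, 0.602, 0.622 and 0.710 in the day 35 libraries, with A the lowest. CDC25B over CDC25C was 1.28 in library A and 1.76 to 2.79 in the others.

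The members varied together over the 8 libraries, with a median Pearson r of 0.76 over 666 pairs of members, and 0.28 over the 7 libraries without A. These points share 1 library that is low throughout. Of genes outside the set, the mean level of the members had its highest correlations over the 8 libraries with TCF7L1, a factor of Wnt signalling (r = 0.99), the planar polarity cadherin CELSR1 (0.99), and HASPIN, a histone kinase of mitosis (0.98), followed by FZD5, the mitotic kinesins KIF15 and KIF14, FADS1 and RBM10. Over the 7 libraries without A the r of HASPIN was 0.96 and that of TCF7L1 0.87. The lowest were PYROXD1, DPH3 and the immediate early gene EGR1 (-0.98, -0.98 and -0.97), whose r over the 7 libraries without A was -0.71, -0.79 and -0.82.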
